A study of Arabidopsis thaliana with 30 samples.

Results

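Chlorophyll is built in the plastid from glutamate. Glutamyl-tRNA reductase (HEMA) commits glutamate to tetrapyrroles, Mg chelatase (subunits CHLH, CHLI and CHLD, with the activator GUN4) places magnesium in protoporphyrin and so directs the flow to chlorophyll rather than to haem, protochlorophyllide oxidoreductase (POR) carries out a reduction that in flowering plants needs light, and chlorophyllide a oxygenase (CAO) makes the b form. In seedlings raised in darkness PORA is known as the form that is abundant before light and declines in it. PORB and PORC are known as forms expressed in light. This succession is often called the POR switch. The genes described here were the 10 loci of these steps, HEMA1 (AT1G58290), HEMA2 (AT1G09940), GUN4 (AT3G59400), CHLH (AT5G13630), CHLI1 (AT4G18480), CHLD (AT1G08520), PORA (AT5G54190), PORB (AT4G27440), PORC (AT1G03630) and CAO (AT1G44446), taken by locus identifier from the 38217 features of a gene count table, and all 10 were found and tested.

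The libraries were RNA-seq of wild type Arabidopsis thaliana seed of the Col-0 ecotype from 1 batch of plants, with 3 libraries at each of 10 time points. Seed was sampled at harvest (H), after dry storage in the dark (0 h) and on medium after 1, 12 or 48 h of stratification in the dark at 4 °C (1 h S to 48 h S), and once stratified, after 1, 6, 12, 24 or 48 h of continuous light at 22 °C (1 h SL to 48 h SL). Besides consecutive steps, the cold span compares 0 h with 48 h S, the light span 48 h S with 48 h SL, and the whole span 0 h with 48 h SL. Light and warmth began together, so their effects cannot be told apart, and whole seeds or seedlings were extracted, so a change in the share of cells of a type and a change of RNA per cell cannot be told apart either. Levels are given as RPKM (reads per kilobase of exon and per unit of library size, which was scaled by the TMM method), which allows genes to be compared per length. Changes are log2 fold changes from edgeR's quasi-likelihood test over all genes, and a gene was called at a Benjamini-Hochberg adjusted p below 0.01. The standard error (SE) of an edgeR change was derived as its absolute value divided by the square root of the F statistic.

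The libraries held 8234345 to 76294780 reads. Seed storage markers summed to at least 99000 CPM (counts scaled to library size) in the H and 0 h libraries and to at most 391 at 48 h SL, and 5 green seedling markers moved the other way, from at most 86.7 in H and 0 h to at least 9630 at 48 h SL, as the labels have it. The shallowest library, 1 h S replicate 2, stood apart from its group. Its antenna genes were at a median of 6.53% of their 48 h SL mean (17 genes with a range of 5.47% to 11.8%), against 2.35% in 1 h S replicate 3, 0.346% in 1 h S replicate 1 and at most 0.701% in the 6 dry seed libraries. EXPA7 and PRP3, which are genes of root hairs, were at 5.93% and 7.80% there. On the same scale (CPM on total reads, without TMM), 5 members were within the range of the antenna genes in that library, HEMA1 at 6.62%, CHLH at 6.63%, PORB at 6.84%, CHLI1 at 8.09% and PORC at 9.13%. The others lay outside it, with PORA below at 3.28% and CHLD at 18.2%, GUN4 at 22.2%, CAO at 50.7% and HEMA2 at 112% above. PORA and GUN4 had only 4 and 3 reads there, so their place is uncertain. In the 0 h libraries CHLD was already at 7.7% to 8.82%, CAO at 61.7% to 65.1% and HEMA2 at 121% to 129%. The part of 1 h S replicate 2 in the results at 1 h S was not tested beyond the values given with and without it. In 12 h SL replicate 3, nuclear rRNA took 13.1% of reads.

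All 10 members varied over time by a likelihood ratio test in DESeq2, as did 73.8% of all genes tested, and all 10 also passed edgeR's F-test. HEMA1, GUN4, CHLH, CHLI1, CHLD, PORA, PORB and PORC had their highest mean level at 48 h SL, HEMA2 was highest at 0 h and CAO was highest in H.

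The 3 POR genes were at low levels at the end of the cold, dark period and at their highest after 48 h of light. PORB was at 1.52, 0.96 and 3.10 RPKM in the 48 h S libraries, PORC at 0.845, 0.952 and 1.49, and PORA at 0.128, 0.151 and 0.107, the last from 10, 14 and 7 reads. PORA was thus the lowest of the 3 in each of these libraries. At 48 h SL PORB had reached 385, 388 and 432 RPKM, which made it the most abundant member of the pathway. PORC was at 77.5, 69.6 and 76.9 RPKM and PORA at 4.06, 5.18 and 7.35 RPKM. For none of the 3 genes did the 48 h S and 48 h SL libraries overlap, in a span where 44.2% of all genes were called higher. Over the light span PORB rose by a log2 fold change of 7.77 ± 0.68 (SE, edgeR, adjusted p = 3.6e-11), PORC by 6.10 ± 0.39 (adjusted p = 6.88e-14) and PORA by 5.39 ± 0.36 (adjusted p = 1.68e-13). The POR switch is described for seedlings raised in darkness, which were not sampled here, so these transcripts do not test it. PORA made up at most 7.32% of the summed POR level in any library and was the lowest of the 3 at every time point. Its mean share was 4.92% at 48 h S, 2.99% at 1 h SL and 0.223% at 6 h SL.

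**Figure D1:**
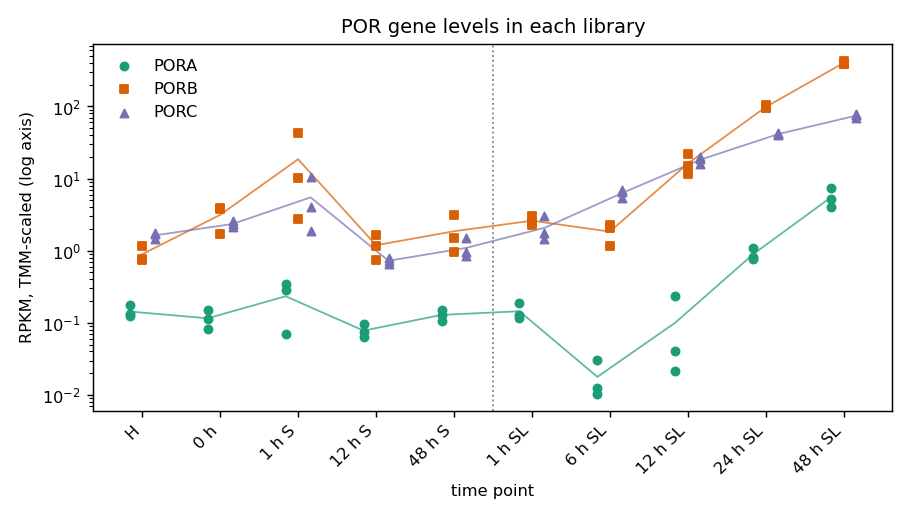
Level of PORA, PORB and PORC (RPKM, log axis) in each of 30 libraries against time point, with points for libraries, lines through the means of 3 libraries and a dotted line where light and warmth begin. PORC is above its 1 h SL libraries by 6 h SL, PORB by 12 h SL and PORA by 24 h SL, and the highest 1 h S points of PORB and PORC belong to replicate 2.

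The first rises called in light came at different steps for the 3 genes. PORC was the earliest. It was at 1.77, 3.02 and 1.43 RPKM at 1 h SL and at 7.05, 6.48 and 5.41 at 6 h SL. This rise of 1.59 ± 0.33 on the log2 scale (edgeR, adjusted p = 0.000251) was the only one called among the members at that step. Over the same step PORB was at 2.3, 3.01 and 2.51 RPKM and then at 2.05, 1.17 and 2.3, a difference that was not called (-0.51 ± 0.54, adjusted p = 0.473). PORB rose at the next step, from 6 h SL to 12 h SL, where its libraries were at 11.4, 15.1 and 21.9 RPKM (3.13 ± 0.56, edgeR, adjusted p = 0.000109), and PORC rose there again (1.53 ± 0.32, adjusted p = 0.000502).

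PORA fell before it rose. Its libraries held 9, 20 and 8 reads at 1 h SL and 1, 3 and 1 reads at 6 h SL. Pooled over the libraries and scaled for their size, PORA was 8.34 times as abundant at 1 h SL as at 6 h SL, with an exact 95% binomial interval of 3.27 to 27.2 that covers counting error only. The fall was called by edgeR (adjusted p = 0.000483) and was not called in limma on the transcript signal (adjusted p = 0.0831). The 0.1 added to the signal in that test was larger than its means, 0.0899 at 1 h SL and 0.0245 at 6 h SL. The test could therefore hardly register this fall. PORA then had 3, 2 and 6 reads at 12 h SL and 200, 72 and 135 at 24 h SL, and rose (3.85 ± 0.45 on the log2 scale, edgeR, adjusted p = 7.97e-08), and again to 48 h SL (2.62 ± 0.28, adjusted p = 1.65e-08). The first rise of PORA to be called in light thus came after those of PORC and PORB. Pooled in the same way, PORA was 3.17 times as abundant at 12 h SL as at 6 h SL (interval 1.01 to 11.6). Most of the reads at 12 h SL came from replicate 3, at 0.239 RPKM against 0.0409 and 0.0215 in replicates 1 and 2. With so few reads, when the rise of PORA began was not settled.

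By mean share PORB led from 0 h to 1 h SL, PORC led at 6 h SL and 12 h SL, and PORB led again from 24 h SL. PORB made up 57.8% at 48 h S and 55% at 1 h SL, against 37.3% and 42% for PORC, and overlapped with PORC at 1 h SL. At 24 h SL the means were 69.9% and 29.4%. Of the summed POR level PORC made up 77.2% ± 7.14 (SD, n = 3) and PORB 22.5% ± 7.27 at 6 h SL, and the libraries of the 2 genes did not overlap. At 12 h SL the shares were 53.7% ± 5.42 and 46.1% ± 5.18 and overlapped. At 48 h SL PORB made up 83.3% ± 0.709, PORC 15.5% ± 0.943 and PORA 1.14% ± 0.277. In dry seed the order was less settled, since PORC led in the 3 H libraries with 56.7% to 65.8% and PORB led in 2 of 3 libraries at 0 h. The log2 ratio of PORB to PORC, per kilobase and with 0.5 reads added, was 0.63 ± 0.55 (SD) at 48 h S and 2.43 ± 0.10 at 48 h SL. That difference of 1.79 had p = 0.1 in an exact two-sided permutation test, which is the smallest p that 3 libraries against 3 can give, and 0.15 after Benjamini-Hochberg adjustment over 12 ratio tests. The log2 ratio of PORA to PORB was -3.63 ± 1.07 at 48 h S and -6.22 ± 0.35 at 48 h SL (exact permutation p = 0.1), and lay lower, at -7.82 ± 1.37, at 12 h SL.

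**Figure D2:**
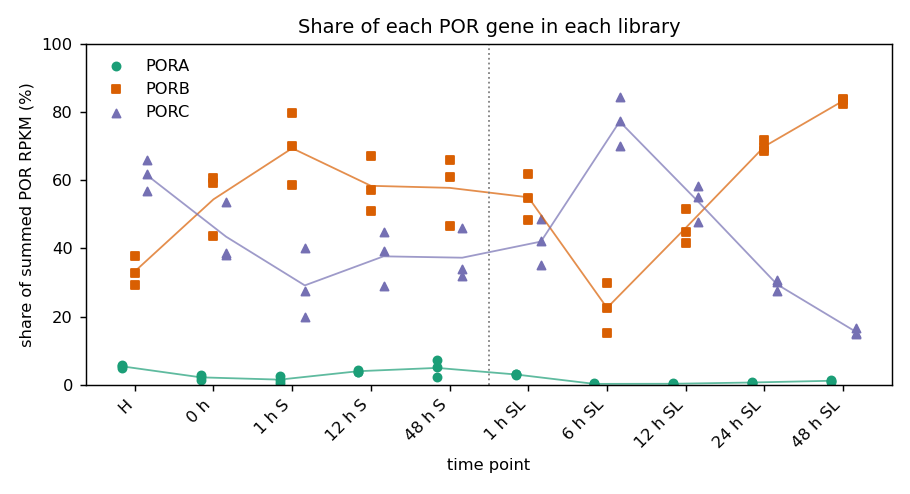
Share of PORA, PORB and PORC in their summed RPKM (%) in each library against time point, with points for libraries, lines through the means of 3 libraries and a dotted line where light and warmth begin. PORC leads at 6 h SL with a mean of 77.2%, PORB leads at 48 h SL with a mean of 83.3%, and PORA stays at or below 7.32% in every library.

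No exact stretch of 50 bases within an exon was shared between the 3 genes. Stretches across exon junctions were not compared. Because PORA, PORB and PORC were first called higher in light at different steps, the 250 bases before each annotated start are shown. They were read from the reference of the same build (TAIR10) and are written 5′ to 3′ on the strand of the gene. Capitals mark runs of at least 10 bases that PORA and PORB had in common. PORA lies on the minus strand of chromosome 5 (gene at 21990864 to 21992814), PORB on the plus strand of chromosome 4 (13725546 to 13727440) and PORC on the plus strand of chromosome 1 (907523 to 909650).
PORA, chr5:21992815-21993064, minus strand: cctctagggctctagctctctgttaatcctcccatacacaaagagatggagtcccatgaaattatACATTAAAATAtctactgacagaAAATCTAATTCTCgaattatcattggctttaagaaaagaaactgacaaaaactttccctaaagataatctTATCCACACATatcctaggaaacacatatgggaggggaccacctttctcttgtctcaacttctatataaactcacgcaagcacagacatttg
PORB, chr4:13725296-13725545, plus strand: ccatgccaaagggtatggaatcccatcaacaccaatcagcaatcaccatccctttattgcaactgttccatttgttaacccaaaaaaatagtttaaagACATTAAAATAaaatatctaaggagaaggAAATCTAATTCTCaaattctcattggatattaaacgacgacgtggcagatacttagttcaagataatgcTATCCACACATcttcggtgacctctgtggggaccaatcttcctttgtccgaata
PORC, chr1:907273-907522, plus strand: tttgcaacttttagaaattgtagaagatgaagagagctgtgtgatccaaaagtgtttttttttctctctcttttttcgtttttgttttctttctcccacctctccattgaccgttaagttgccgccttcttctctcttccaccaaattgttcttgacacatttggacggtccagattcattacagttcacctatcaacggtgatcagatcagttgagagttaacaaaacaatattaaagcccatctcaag
PORA and PORB had 3 such runs, in the same order, with 35 bases in all. The longest, AAATCTAATTCTC, was in 3 of 36866 promoters of that length on either strand, TATCCACACAT in 13 and ACATTAAAATA in 50. These counts include PORA and PORB. How many such runs other pairs of promoters share was not counted. PORC shared no run of 10 bases with either. Searched on both strands, none of the 3 held the G-box letters CACGTG (in 5.43% of all promoters), CACGCGC, the letters that FHY3 and FAR1 are known to bind (0.884%), or AGATAAG (4.99%), and PORA alone held TATAAA (44.7%), at 28 to 23 bases before the start.

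The non-member genes whose mean levels over the 10 time points followed a POR gene most closely differed between the 3, as a description over 10 means that share the same libraries. For PORB they were AT5G23820 (Pearson r = 0.9953), AT1G29090 (0.995) and PSAF (0.9944), a photosystem I subunit. For PORC they were ALDH11A3 (0.996), AT5G45490 (0.9957) and PSBX (0.9947), a photosystem II subunit. For PORA they were AT3G22565, GH9A3 and CNGC3 (each 0.9969), all 3 of which were at 0.0280 RPKM or less at 12 h SL and at 0.856 to 2.22 RPKM at 48 h SL.

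At the entry to the pathway, the balance of the glutamyl-tRNA reductase transcripts moved from HEMA2 towards HEMA1 while the seed was still cold and dark. HEMA1 is known as the form that serves chlorophyll in green tissue and HEMA2 as a form also expressed in non-green tissue. HEMA1 was at 0.742, 0.777 and 0.788 RPKM at 12 h S and at 4.71, 4.66 and 4.90 at 48 h S, and rose by 2.63 ± 0.34 on the log2 scale (edgeR, adjusted p = 1.72e-07). HEMA2 was at 20.7, 19.1 and 19.0 RPKM at 12 h S and at 6.77, 6.54 and 6.33 at 48 h S, and fell by 1.58 on the same scale (SE 0.14, adjusted p = 9.69e-11). Neither pair of groups overlapped, and the libraries within each lay close together. The log2 ratio of HEMA1 to HEMA2 was -4.66 ± 0.11 (SD, n = 3) at 12 h S, -0.46 ± 0.08 at 48 h S, 0.35 ± 0.06 at 12 h SL and 2.84 ± 0.13 at 48 h SL, so HEMA1 became the more abundant of the pair between 6 h SL and 12 h SL. The difference of 3.62 over the cold span had an exact permutation p of 0.1 (0.15 adjusted).

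At the step into light HEMA1 was not called (-0.15 ± 0.31, edgeR, adjusted p = 0.802). It was called higher at each of the last 3 steps, the first of which (1.1 ± 0.31, adjusted p = 0.00672) was lost without any 1 of its 6 libraries. It reached 57.4, 51.4 and 54.8 RPKM at 48 h SL, a rise of 3.52 ± 0.33 from 48 h S (edgeR, adjusted p = 1.4e-10). HEMA2 was at 7.49, 7.97 and 7.42 RPKM at 48 h SL, above its 48 h S libraries, and this difference was not called (0.22 ± 0.13, adjusted p = 0.124). Under library size alone it was called (0.96, adjusted p = 9.78e-08), a scaling that moved the median of all genes to 1.00 for this comparison against 0.26 with TMM. Over the whole span HEMA2 fell by 1.55 ± 0.14 with TMM (adjusted p = 3.19e-11), and was not called under library size alone (-0.32, adjusted p = 0.0185), where the median of all genes was 1.70 against 0.44. The third gene of the family, HEMA3, was at mean levels of 0.374, 0.206 and 0.447 RPKM at the 3 ends of these spans, below HEMA1 and HEMA2, and rose over the light span by 1.11 ± 0.31 (adjusted p = 0.00167).

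**Figure D3:**
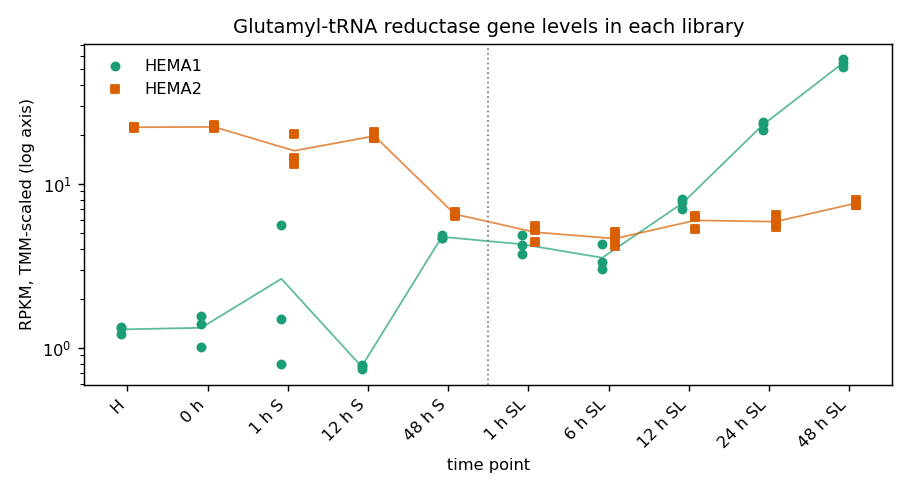
Level of HEMA1 and HEMA2 (RPKM, log axis) in each library against time point, with points for libraries, lines through the means of 3 libraries and a dotted line where light and warmth begin. Between 12 h S and 48 h S the mean of HEMA1 goes from 0.769 to 4.76 and that of HEMA2 from 19.6 to 6.55, and HEMA1 lies above HEMA2 in every library from 12 h SL on.

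Of the Mg chelatase subunits, CHLI1, an ATPase subunit, had the largest rise of any member in the cold. It was at 0.581, 0.871 and 0.625 RPKM at 12 h S and at 15.4, 15.1 and 13.0 at 48 h S, without overlap, and rose by 4.39 ± 0.48 on the log2 scale (edgeR, adjusted p = 9.87e-09). It then increased in small amounts. Its libraries at each time point in light lay above all libraries of the time point before, up to 179, 164 and 179 RPKM at 48 h SL, yet no single step in light was called, whereas the light span was (3.58 ± 0.44, adjusted p = 2.02e-08).

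CHLH, the subunit that binds the porphyrin, took another course. It was at 1.28, 1.03 and 1.37 RPKM at 48 h S, at 1.48, 1.90 and 1.53 at 1 h SL and at 0.339, 0.293 and 0.451 at 6 h SL, so that it fell by 2.18 on the log2 scale in the step to 6 h SL (SE 0.48, edgeR, adjusted p = 0.000552). It recovered to 2.19, 2.57 and 3.37 RPKM at 12 h SL (2.89 ± 0.49, adjusted p = 5.59e-05) and reached 102, 91.1 and 91.4 at 48 h SL. Its rise over the light span was 6.28 ± 0.55 (adjusted p = 2.99e-11), second among the members to that of PORB. At 6 h SL the mean level of CHLI1 was thus 34.4 RPKM while that of CHLH was 0.361. PORA and CHLH were the 2 members called lower from 1 h SL to 6 h SL, at the step where PORC was called higher.

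CHLD, which forms a complex with CHLI, had the narrowest range of the 3. Its lowest mean was 3.27 RPKM at 12 h S and its highest 32.3 at 48 h SL. It rose from 12 h S to 48 h S by 0.67 ± 0.21 (edgeR, adjusted p = 0.0072, a call that was lost without any 1 of the 6 libraries of these time points) and over the light span by 2.63 ± 0.22 (adjusted p = 1e-11). CHLI2, the second gene for the I subunit, rose in both spans, from 0.711 RPKM at 0 h to 2.47 at 48 h S and 34.1 at 48 h SL, and stayed below CHLI1.

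GUN4 differed between the gene counts and the deposited transcript signal. GUN4 is a gene of 1 exon on the minus strand of chromosome 3 (21948501 to 21949796), and 946 of its 1296 bases (73%) overlap exons of AT3G59410 on the other strand. The libraries were unstranded, so reads of the overlap cannot be assigned by strand, and how the counting treated them was not stated. By counts GUN4 was at 0.148, 0.0691 and 0.0981 RPKM at 48 h S and at 0.855, 0.815 and 0.678 at 48 h SL (2.89 ± 0.43, edgeR, adjusted p = 5.92e-07). By the signal of its transcript (TPM divided by a size factor) it was at 2.43, 1.66 and 2.18 at 48 h S and at 70.5, 61.8 and 67.8 at 48 h SL, a log2 difference of 4.95 ± 0.43 with 0.1 added (limma, adjusted p = 1.07e-10), against 52.3% of all genes higher by this test. The tables differed in direction for the cold span. The signal was higher at 48 h S (1.73 ± 0.43, limma, adjusted p = 0.000874, against 33.0% of genes higher) and the counts were not called (-1.51 ± 0.55, edgeR, adjusted p = 0.0167). No other overlap of a member exceeded 7.21% of its exonic bases, which was that of CHLI1 with AT4G18465.

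**Figure D4:**
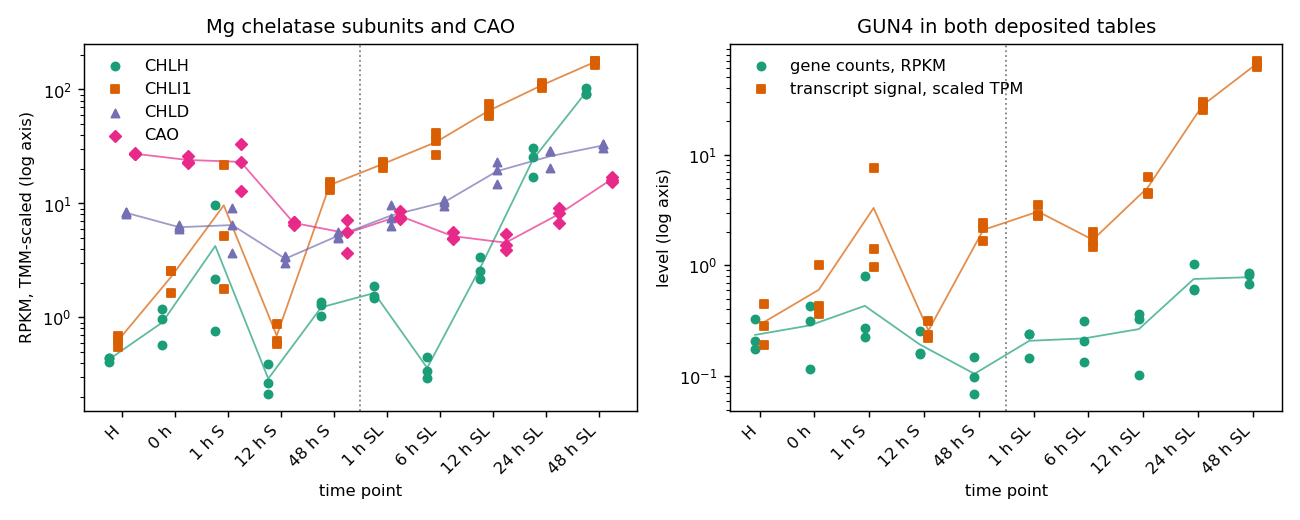
Left, level of CHLH, CHLI1, CHLD and CAO (RPKM, log axis) in each library against time point. Right, GUN4 in each library as RPKM from gene counts and as the deposited transcript signal (log axis). Lines join means of 3 libraries and the dotted line marks the start of light and warmth. CHLI1 is already at a mean of 14.5 at 48 h S, CHLH dips to 0.361 at 6 h SL, and for GUN4 the means at 48 h SL are 0.782 by counts and 66.7 by signal.

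CAO, like HEMA2, had its highest level in dry seed. It was at 27.2, 27.7 and 27.0 RPKM in H and at 22.6, 23.3 and 26.3 at 0 h, and fell to 6.92, 6.52 and 6.82 at 12 h S. Over the cold span it fell by 2.13 on the log2 scale (SE 0.23, edgeR, adjusted p = 3.75e-09). It was at 4.32, 5.37 and 3.89 RPKM at 12 h SL, rose by 0.82 ± 0.22 to 24 h SL (adjusted p = 0.00271) and by 1.02 ± 0.22 to 48 h SL (adjusted p = 0.000347), and ended at 16.2, 15.5 and 17.1. Over the whole span its direction depended on the scaling, with -0.57 ± 0.22 under TMM (not called, adjusted p = 0.0192), -0.65 under DESeq2 size factors (adjusted p = 0.00481) and 0.66 under library size alone (adjusted p = 0.00252). CAO was the only member with a G-box in the 250 bases before its start, and it held 2. The sequence is shown for that reason, with the G-boxes in capitals, at 52 to 47 and 32 to 27 bases before the start.
CAO, chr1:16851272-16851521, minus strand: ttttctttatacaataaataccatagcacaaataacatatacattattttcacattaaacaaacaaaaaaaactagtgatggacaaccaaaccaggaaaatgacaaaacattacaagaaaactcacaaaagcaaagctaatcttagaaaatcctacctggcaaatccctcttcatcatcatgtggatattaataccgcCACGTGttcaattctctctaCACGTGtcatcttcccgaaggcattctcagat

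The members called at each step are given beside the share of all genes called there. From H to 0 h 1 member was higher, CHLI1 (1.84 ± 0.49, adjusted p = 0.00946), and 0 were lower by edgeR, against 2.56% of all genes higher and 6.26% lower. The call of CHLI1 was lost without any 1 of the 6 libraries. From 0 h to 1 h S 3 members were higher and 0 lower, against 1.24% and 2.04% of genes. These were PORB (2.54 ± 0.56, adjusted p = 0.00657), CHLI1 (2.04 ± 0.45, adjusted p = 0.00647) and CHLH (2.19 ± 0.49, adjusted p = 0.0068), and the libraries of each overlapped between the time points. PORB was at 2.74, 42.8 and 10.1 RPKM in the 1 h S libraries. Without 1 h S replicate 2 the 3 values were 1.06, 0.66 and 0.72 (adjusted p = 0.197, 0.208 and 0.243), and 0 members were called. The count was also 0 without any 1 of the 0 h libraries, and 6 without 1 h S replicate 1.

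From 1 h S to 12 h S 7 members were lower and 0 higher, against 17.7% and 18.1% of all genes, and HEMA1 among them was not called without 1 h S replicate 2 (-0.62, adjusted p = 0.0226), which left 6. At the step to 48 h S 4 were higher (HEMA1, CHLH, CHLI1 and CHLD) and 1 lower (HEMA2), against 27.0% and 24.8%. From 48 h S to 1 h SL 0 members were called by edgeR, against 4.43% of genes higher and 3.66% lower, with 4 members at an unadjusted p below 0.05 and 1 called by DESeq2's Wald test, HEMA2, which was lower. From 1 h SL to 6 h SL 1 was higher and 2 lower, against 17.3% and 16.8%. At the step to 12 h SL 5 were higher and 0 lower, against 10.7% and 12.9%. At that to 24 h SL 7 were higher and 0 lower, against 25.9% and 22.0%. At the last, to 48 h SL, 5 were higher and 0 lower, against 21.9% and 19.0%. Of these calls, that of CHLD at the step to 12 h SL was lost without 12 h SL replicate 3, where 3 members were called, and at the step to 24 h SL those of GUN4, PORC and CAO were lost without 12 h SL replicate 1, where 4 were called.

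**Figure D5:**
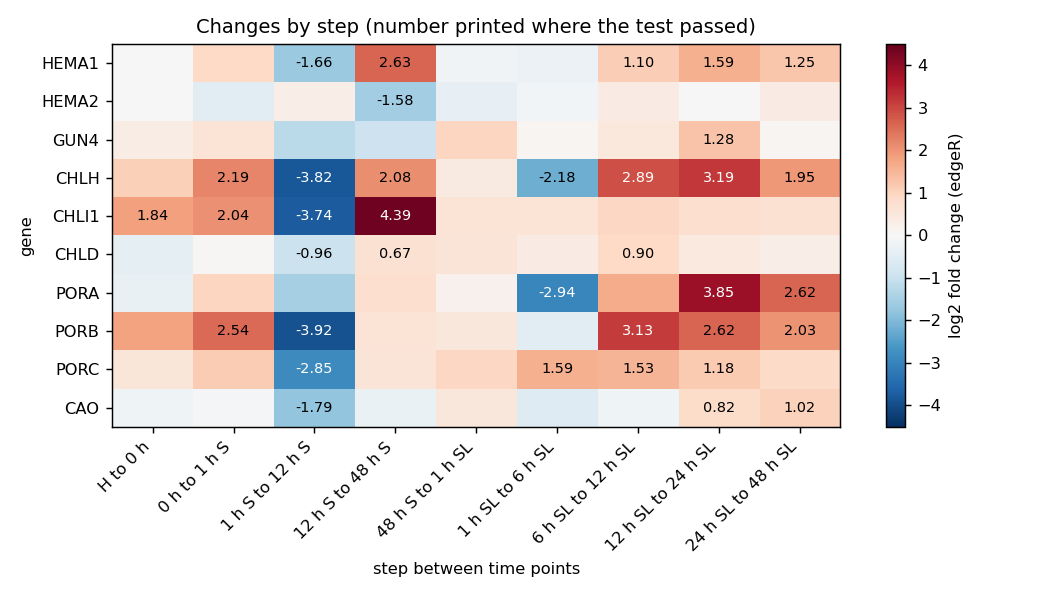
Log2 fold change (colour scale, edgeR with TMM) of each member (rows) at each of 9 steps between consecutive time points (columns), with the value printed where the adjusted p is below 0.01. CHLI1 has 4.39 from 12 h S to 48 h S, where HEMA2 has -1.58, CHLH and PORA are negative in the step to 6 h SL, and the last 3 steps hold called rises alone.

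Over the spans, 2 members were higher (HEMA1 and CHLI1) and 3 lower (HEMA2, CAO and PORC) over the cold span, against 33.2% and 28.5% of all genes. The fall of PORC (-1.11 ± 0.36, edgeR, adjusted p = 0.00724) was lost without 4 of the 6 libraries in turn and under library size alone (-0.63). In the light span 9 of 10 were higher and 0 lower, against 44.2% and 36.9%, and HEMA2 was not called. This count was 9 whichever of the 6 libraries was left out. In the whole span 8 were higher and 1 lower, against 45.8% and 33.3%. The spans share time points and are not independent of each other.

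Nearly all other genes of the pathway rose in light. Of 22 further pathway genes 21 were tested, and HEMB2, a second gene for 5-aminolevulinate dehydratase, was not, at 9 reads or fewer in the libraries of the 3 spans. In the light span 20 were higher and 0 lower, against 44.2% and 36.9% of all genes, with a median log2 fold change of 2.3 against 0.26 over all genes. The largest rises were those of the divinyl reductase DVR (7.05 ± 0.52, from 0.519 to 67.7 RPKM) and the cyclase CRD1 (6.95 ± 0.55, from 2.37 to 291 RPKM). In the cold span 5 were higher and 6 lower, against 33.2% and 28.5% of all genes, with a median of -0.33 against 0.03, so the list was not set apart by these counts. The largest rises there were those of CHLM, the methyltransferase that acts on the product of Mg chelatase (2.04 ± 0.19), and CHLI2 (1.83 ± 0.39), and the largest falls those of HEMF2, a coproporphyrinogen oxidase (-3.24 ± 0.16), and HEMD, uroporphyrinogen III synthase (-1.79 ± 0.13). Over the whole span 18 were higher and 1, HEMD, was lower (-0.52 ± 0.13), against 45.8% and 33.3% of all genes, while the transcript signal of HEMD had means of 11.6 at 0 h and 12.3 at 48 h SL.

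Of the 7 genes of the haem branch, which takes protoporphyrin to haem and to the phytochrome chromophore, HO3 and HO4 were not tested, at 4 reads or fewer and 13 reads or fewer in the libraries of the 3 spans. Of the 5 tested, 3 were higher and 1 lower in the light span, against 44.2% and 36.9% of all genes. FC2, a plastid ferrochelatase, was at 2.69 ± 0.15, HO2 at 1.94 ± 0.24 and the haem oxygenase HO1 at -1.15 ± 0.17. In the cold span 2 were higher, HO2 (2.07 ± 0.27) and HY2 (1.93 ± 0.23), against 33.2% of all genes. Over the whole span 4 were higher and HO1 was lower (-0.86 ± 0.17), against 45.8% and 33.3% of all genes.

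Of the genes of chlorophyll breakdown, several fell from high levels in dry seed, and the list was split in light. In the cold span 5 of 10 were lower and 0 higher, against 28.5% and 33.2% of all genes. The largest falls were in SGR2 (-4.84 ± 0.38, from 1520 to 52.9 RPKM) and NYC1, a chlorophyll b reductase (-4.61 ± 0.24). In the light span 4 were higher and 4 lower, against 44.2% and 36.9% of all genes. SGR2 (-5.71 ± 0.40) and SGR1, the Mg dechelatase (-3.62 ± 0.27), fell further, while the chlorophyllase CLH1 (6.41 ± 0.30) and PAO, pheophorbide a oxygenase (2.42 ± 0.21), rose. Over the whole span 6 were lower and 2 higher, against 33.3% and 45.8% of all genes. SGR2 was at -10.56 ± 0.49 and SGR1 at -8.20 ± 0.33, and those higher were CLH1 (5.89 ± 0.31) and NOL (0.86 ± 0.23).

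All 13 regulators were tested, and their counts lay close to the shares over all genes in the cold and light spans. In the cold span 4 were higher and 3 lower, against 33.2% and 28.5% of all genes. HYH (3.60 ± 0.25), a bZIP factor related to HY5, and the GATA factor GNC (3.33 ± 0.16) rose most, and HY5 (-4.47 ± 0.23) and GLK1 (-1.22 ± 0.26) fell most. In the light span 7 were higher and 6 lower, against 44.2% and 36.9%. GLK1, a factor that activates nuclear genes of photosynthesis (4.34 ± 0.26, from 0.849 to 17.1 RPKM), and HY5, an activator in light (3.73 ± 0.22, from 1.57 to 20.7 RPKM), rose most, and GNC (-3.22 ± 0.15) and PIF1, a repressor of chlorophyll genes in the dark (-2.41 ± 0.27), fell most. Over the whole span 6 were higher and 2 lower, against 45.8% and 33.3% of all genes. GLK1 (3.12 ± 0.25) and PIF4 (2.53 ± 0.33) rose most, and HY5 (-0.74 ± 0.19) and FHY3 (-0.68 ± 0.14) fell.

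Antenna genes, whose proteins bind the chlorophyll made, rose in light. Of 18, LHCB1.5 was not tested, as it had 0 reads in the gene counts of every library, although its deposited transcript signal had means of 9.03 at 0 h, 1.28 at 48 h S and 554 at 48 h SL. By counts all 17 others were higher over the light span, against 44.2% of all genes, with a median of 7.67 against 0.26. LHCB2.2 (8.53 ± 0.55) and LHCB5 (8.14 ± 0.51) led. All 17 were also higher over the whole span, against 45.8% of all genes, led by LHCB2.2 (7.36 ± 0.53) and LHCB1.4 (7.0 ± 0.66). In the cold span 8 were lower and 0 higher, against 28.5% and 33.2% of all genes, with LHCB4.2 at -3.85 ± 0.29 and LHCB5 at -3.06 ± 0.42. The tables differed for LHCB2.3, which by counts went from a mean of 0.121 RPKM at 48 h S to 15.1 at 48 h SL and by the transcript signal from 0.134 to 0.0427.

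Of the members, PORB, PORC, CHLH and CAO had more than 1 annotated transcript that could be compared. The log2 ratio of the 2 main transcripts varied over time in 3 of these 4 (limma F-test, 58.0% of genes tested), in PORC (adjusted p = 9.7e-07), PORB (adjusted p = 0.00277) and CAO (adjusted p = 0.00328), and was not called for CHLH (adjusted p = 0.12). PORB.2 made up 30.4% ± 2.85 (SD, n = 3) of the PORB signal at 48 h SL, with a range of 28.2% to 33.6%. At 24 h SL it made up 0.345% to 14.2%, so the libraries of these time points did not overlap. The share at 48 h SL was not particular to that time point. PORB.2 was at 37% ± 17.1 in H, 23.6% ± 14.5 at 0 h and 44.6% ± 15.8 at 1 h S. The lowest value at 24 h SL was that of replicate 2, which also had the lowest share of CHLH.2 (9.78%) and of PORC.1 (5.46%) at that time point. For PORC, transcript PORC.1 went from 56.9% ± 17.9 in H to 16.3% ± 0.862 at 48 h SL. CAO.1 went from 34.9% ± 5.40 in H to 9.81% ± 3.24 at 6 h SL, and CAO.4 was the main transcript in both. Without 24 h SL replicate 1 or replicate 2 all 4 genes were called, and without H replicate 1 or replicate 2, 2 were.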

How the data were processed

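RNA-seq libraries of 10 time points with 3 biological replicates each, from 1 batch of plants, were analysed. According to the submitters' processing notes, reads were trimmed with Trim Galore 0.4.2, aligned to TAIR10 with HISAT2 2.0.5 and counted with featureCounts 1.5.1. The deposited gene table holds the authors' whole-number counts, unnormalized. How reads in overlapping exons were counted was not given in the sources used here. The deposited transcript table holds a signal that the authors made with Salmon 0.7.2 and sleuth 0.28.1, namely TPM rescaled by each library's size factor. The labels name polyA selection and a total RNA kit side by side. A table of transformed values and a table of the authors' own isoform tests were deposited and not used.

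Counts were tested in edgeR 4.0.16 (R 4.3.3) by quasi-likelihood after TMM and a filter with minimum count 10, in 1 fit of 30 libraries that tested 23222 genes. The time effect was tested in DESeq2 1.42.0 by likelihood ratio, and transcript ratios (pseudocount 0.1) and signal (0.1 added) in limma 3.58.1. Ratios of members took 0.5 reads added and an exact permutation test. Adjusted p below 0.01 was called. Levels are RPKM on TMM-scaled library sizes. The tests were tried on simulated data, where the likelihood ratio test gave low p-values more often than its nominal rate, so edgeR's F-test is given beside it. Positions of all 10 members were the same in the reference annotation and the count table.

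The members and gene lists were chosen with earlier results of these data known. Named genes were all 10 members, the 2 largest rises and falls called per list and span, list genes not tested, and the 3 genes most correlated with each POR gene, on log2(CPM + 1) means. HEMA3, EXPA7, PRP3 and LHCB2.3 were named after their values were seen. Alternatives were other scalings, filters and tests, the 6 libraries of a comparison alone, each library left out, a replicate block and other pseudocounts. Leaving out 1 h S replicate 2 with 12 h SL replicate 3, and limma on the summed signal, were chosen after seeing the data. Intervals cover counting error only.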

Additional observations from a re-analysis of the deposited data

How the results depend on the processing

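All 10 members kept their time effect under every alternative run, and over the light span 9 were called under each except library size alone and limma on the signal, where HEMA2 made 10. Of 1666 recomputed changes of single members 1536 kept their call and its direction or stayed uncalled. A further 77 lost the call, 50 gained it and 3 were called with the other sign. The 3 were GUN4 in the transcript signal, from 12 h S to 48 h S (2.6) and over the cold span (1.73), and CAO over the whole span under library size alone (0.66). Uncalled changes could differ in sign and still be among the 1536. For example, HEMA1 from 0 h to 1 h S was at 0.88 and, without 1 h S replicate 2, at -0.18. The number of members called from H to 0 h was 1 and became 0 under library size alone, 2 in DESeq2's Wald test, 0 in limma on the signal, 5 with the 6 libraries alone and 3 without 1 h S replicate 2 and 12 h SL replicate 3, and was 0 without each of the 6 libraries in turn. For 0 h to 1 h S it was 3 and became 5 in the Wald test, 1 on the signal, 0 with the 6 libraries alone, 0 without those 2 libraries together, and 0 to 6 with single libraries left out. With the 6 libraries alone it was 2 from 1 h S to 12 h S (7 in the full fit) and 8 at the last step (5 in the full fit). Between 48 h S and 1 h SL it was 0 and became 1 in the Wald test, 2 without those 2 libraries and 0 with any single library left out. With single libraries left out it was 3 to 4 at the step to 12 h SL, 4 to 7 at the step to 24 h SL and 5 at the last. Without the pair of libraries that stood apart these 3 counts were 6, 7 and 8. The haem genes called in the cold span were 4 with DESeq2 size factors, in the Wald test and with the 6 libraries alone, against 2, and the antenna genes 4 under library size alone, against 8. The log2 ratio of PORA to PORC over the whole span was 0.44 and became -0.47 on the signal and -0.46 with 5 reads added. That of PORB to PORC over the cold span was 0.31 and ranged from -0.01, without 0 h replicate 3, to 0.62. Where fewer libraries are fitted, fewer degrees of freedom remain, and the cause of other shifts was not tested.

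Whether replicate numbers pair the libraries was not settled. Deviations of same-numbered libraries correlated above 0.1 in 10, 12 and 14 of 45 pairs, and 16 of 30 libraries correlated best with their own number. These counts were not tested against chance. With a replicate block the members called from 0 h to 1 h S went from 3 to 1, and the genes called in all from 761 to 592, and no other count of members changed. PORA was limited by depth, with 1 to 3 reads a library at 6 h SL.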
